A study of Bos taurus with 8 samples.

Results

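HAND, GATA, and FOXC proteins, together with TBX5, TWIST1, and TCF21, are transcription factors of mesoderm development, in tissues such as heart, limb bud, gut wall, and connective tissue. The study placed GATA6 and FOXC2 under myogenesis, and FOXC2 also under the proliferation and differentiation of myoblasts. Of 9 such genes (HAND1, HAND2, GATA4, GATA6, FOXC1, FOXC2, TBX5, TWIST1, and TCF21), 5 were found through the RefSeq accession of an array probe, out of 7788 genes named in this way. These were HAND1 (NM_001075761), GATA4 (NM_001192877), FOXC2 (NM_001193072), TBX5 (NM_001192749), and TCF21 (NM_001014899). GATA6 was found through the study's own list of common transcripts, and its probe carries an Ensembl transcript identifier. HAND2, FOXC1, and TWIST1 were not analysed here. Each of the 6 genes had 1 probe, which was spotted 2 times on every array, and all 6 probes passed the filter on dim signals. HAND1, FOXC2, and GATA6 were on a list that the study chose on the same arrays. It holds genes annotated to muscle organ development that had a change shared by both beef breeds. The ratios of these genes to HF are therefore described without a test. GATA4, TBX5, and TCF21 were added because of their family or role, with other results of these arrays already known.

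The study compared muscle cells of beef and dairy cattle. RNA came from primary cultures of semitendinosus muscle of 15-month-old bulls, 4 per breed, which were Limousin (LIM) and Hereford (HER) as beef breeds and Holstein-Friesian (HF) as the dairy breed. Cells of all breeds were taken at 80% confluence while still proliferating, and no other treatment separated the groups. The cultures were enriched for myoblasts by repeated preplating and still held other cells of muscle. Of the 8 arrays, 4 carried HER RNA labeled with Cy3 beside HF RNA labeled with Cy5, and 4 carried LIM RNA labeled with Cy5 beside HF RNA labeled with Cy3. All arrays of a comparison lay on 1 slide, so within it the breed cannot be told apart from the slide or the dye orientation. The HF bull behind each array is not given. All 8 arrays carried HF RNA from 4 HF bulls, so some bulls supplied more than 1 array. Both comparisons may share HF cultures and were not taken as independent of each other.

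Skeletal muscle genes marked all cultures. Of 10 listed markers, 9 had a probe, each well above background in all 16 channels, and 8 were higher than HF in both beef breeds (MYOD1 was not called), beside 16% of all probes in LIM and 10.4% in HER. Their summed signal, in which the brightest genes weigh most, was between 1.65 and 2.80 higher in LIM and between 1.49 and 2.88 higher in HER on the log2 scale. Signal well above background was found for 68.8% to 85.2% of the probes in the beef channel of an array and for 73.9% to 78.0% in its HF channel, and no spot was saturated. On HER replicate 3, 38 spots had a local red background above 500.

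In embryos, HAND and GATA proteins act together in heart progenitors and lateral plate mesoderm. HAND proteins are basic helix-loop-helix factors that bind DNA as dimers with E proteins, GATA proteins bind through zinc fingers and recruit FOG cofactors, and FOXC proteins are forkhead factors of mesenchyme and vessels. Bone morphogenetic proteins (BMPs) induce several of these genes in lateral mesoderm and oppose the skeletal muscle programme in somites.

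HAND1 transcript was lower than in HF on every array of both beef breeds. HAND1 is a factor of extraembryonic and cardiac mesoderm. All values below are log2 ratios of beef breed over HF from the scanner software, and signals are its processed intensities (in arbitrary units). In LIM replicates 1 to 4, the HAND1 ratio was -1.14, -1.21, -1.50, and -2.17. Its signal was 12590, 9421, 7255, and 3234 in LIM against 27676, 21753, 20512, and 14535 in HF on the same arrays. Every LIM signal was thus under every HF signal. In HER replicates 1 to 4, the ratio was -1.42, -0.75, -0.62, and -0.60. The HER signal was 7540, 9557, 9381, and 6451 against 20143, 16053, 14369, and 9823 in HF. These groups did not overlap either, and HER replicate 1 was the lowest of the HER ratios. The mean was -1.50 ± 0.47 (SD, n = 4 arrays) in LIM, a 2.84-fold lower level, and -0.85 ± 0.39 in HER, a 1.80-fold lower level. Both spots of the HAND1 probe differed by at most 0.10 on any array. In cultures of several cell types, fewer cells that express a gene and less RNA of it per cell cannot be told apart.

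**Figure D1:**
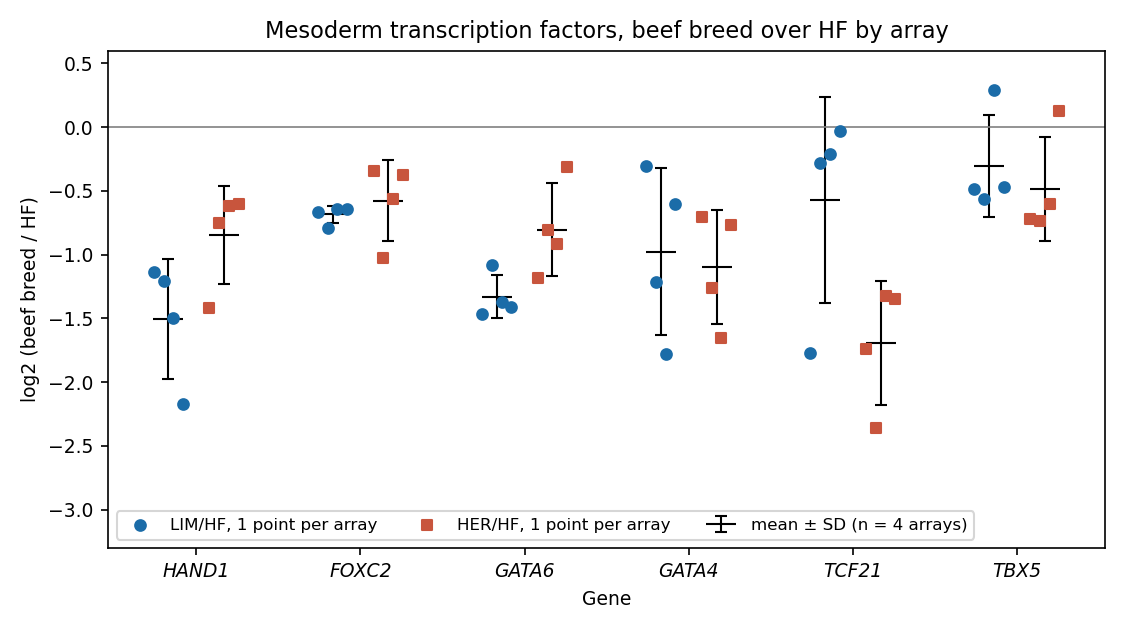
Log2 ratio of beef breed over HF for 6 mesoderm transcription factors. Each point is 1 array (circles for LIM, squares for HER, replicates 1 to 4 from left to right), and bars give the mean ± SD of 4 arrays. HAND1, FOXC2, GATA6, GATA4, and TCF21 lie under 0 on all arrays, whereas TBX5 reaches 0.29 in LIM and 0.12 in HER.

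FOXC2, a forkhead factor of lymphatic vessels, heart valves, and paraxial mesenchyme, was lower than HF by a similar amount in both beef breeds. Its ratio was -0.66, -0.79, -0.64, and -0.64 in LIM replicates 1 to 4 and -0.34, -1.03, -0.57, and -0.38 in HER replicates 1 to 4. The LIM ratios lay within a narrow range, and HER replicate 2 was the lowest of all 8. Signals were 106 to 162 in LIM against 165 to 280 in HF, without overlap, and 72.2 to 113 in HER against 101 to 215 in HF, with overlap. The mean was -0.68 ± 0.07 in LIM (1.61-fold lower) and -0.58 ± 0.32 in HER (1.49-fold lower). It came closer to 0, to -0.28 in LIM and -0.08 in HER, when the scanner's background subtraction and dye normalization were both replaced, by normexp correction (a model of signal plus noise, with an offset of 50) and by loess within each array. With loess and no background correction, it was -0.39 in LIM and -0.34 in HER.

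GATA6, a zinc finger factor of heart, endoderm, and vascular smooth muscle, was lower than HF on every array. Its ratio was -1.46, -1.08, -1.37, and -1.41 in LIM replicates 1 to 4. In HER replicates 1 to 4, it was -1.18, -0.81, -0.92, and -0.31. LIM ratios differed little among arrays, and HER replicate 4 stood nearest to HF. Signals were 31.1 to 70.9 in LIM against 80.2 to 150 in HF, without overlap. In HER they were 25.3 to 62.4 against 47.8 to 109, with overlap, and the HER channel of replicate 3 was not well above background. The mean was -1.33 ± 0.17 in LIM (2.51-fold lower) and -0.80 ± 0.36 in HER (1.75-fold lower), against -0.37 in LIM and -0.12 in HER with normexp and loess.

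GATA4, which cooperates with TBX5 and NKX2-5 in heart development, was not on the list the study chose. Its ratio was -0.30, -1.21, -1.78, and -0.61 in LIM replicates 1 to 4, and -0.70, -1.26, -1.65, and -0.76 in HER replicates 1 to 4. Replicates 2 and 3 were the lowest in both comparisons. Signals were 120, 106.9, 97.9, and 77.4 in LIM against 149, 248, 336, and 118 in HF, so the groups overlapped by 1 array each. They were 79.9, 90.0, 69.5, and 67.6 in HER against 130, 216, 216, and 115 in HF, without overlap. GATA4 was lower by a mean of -0.98 ± 0.66 in LIM (1.97-fold, limma adjusted p = 0.0179 over 17631 probes) and -1.09 ± 0.45 in HER (2.14-fold, limma adjusted p = 0.0180), on 4 of 4 arrays each. The LIM call was lost without LIM replicate 2 (-0.90, limma adjusted p = 0.0682) and without LIM replicate 3 (-0.71, limma adjusted p = 0.0758). The HER call was lost without HER replicate 2 (-1.04, limma adjusted p = 0.0751), without HER replicate 3 (-0.91, limma adjusted p = 0.0652), and with normexp and loess (-0.18, limma adjusted p = 0.495). With normexp and loess, 0 of all 17631 probes were called in HER, so a HER call lost there is not particular to any gene. With normexp and loess after marked local backgrounds were replaced by the array median, the HER mean was -0.55 (limma adjusted p = 0.0253). The LIM mean with normexp and loess was -0.45.

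TCF21, a basic helix-loop-helix factor of epicardium and of fibroblast precursors, was lower in HER. Its ratio was -1.74, -2.36, -1.32, and -1.34 in HER replicates 1 to 4. The HER signal was 49.3, 39.4, 37.7, and 26.4 against 163, 201, 94.0, and 67.0 in HF, without overlap. The HER mean was -1.69 ± 0.49, a 3.23-fold lower level (limma adjusted p = 0.00739, 4 of 4 arrays). With normexp and loess, where 0 of all probes were called in HER, it was -0.32 (limma adjusted p = 0.339). It was -0.71 (limma adjusted p = 0.0167) once marked backgrounds were replaced. In LIM replicates 1 to 4, the ratio was -1.77, -0.28, -0.21, and -0.03, so a single array stood far from the other LIM arrays. The LIM signal was 71.3, 208, 137, and 81.3 against 238, 253, 159, and 82.8 in HF, with overlap. The LIM mean of -0.57 ± 0.81 did not pass the test (limma adjusted p = 0.159, 95% confidence interval -1.24 to 0.10) and was -0.17 without LIM replicate 1.

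TBX5, a T-box factor of the forelimb bud and heart, had ratios of -0.48, -0.56, 0.29, and -0.47 in LIM and -0.72, -0.74, -0.60, and 0.12 in HER. In each comparison, 3 arrays were under 0 and 1 above it. Signals were 14.1 to 44.2 in all channels, and the probe was well above background in 1 of 4 HER channels and in 3 of 4 HF channels on the same arrays. Its 2 spots differed by up to 1.03 on an array. TBX5 passed in neither comparison, with -0.31 ± 0.40 in LIM (limma adjusted p = 0.24, 95% confidence interval -0.74 to 0.13) and -0.48 ± 0.41 in HER (limma adjusted p = 0.0945, 95% confidence interval -0.92 to -0.05). Without HER replicate 4, the HER mean was -0.69 (limma adjusted p = 0.0397), and without LIM replicate 3, the LIM mean was -0.50 (limma adjusted p = 0.094). In a model of all 8 arrays with a beef and a dye term, where 38.1% of all probes were called, TBX5 was lower in beef breeds (-0.39, limma adjusted p = 0.0404), as were GATA4 (-1.04, limma adjusted p = 0.00211) and TCF21 (-1.13, limma adjusted p = 0.00279). That model counts the HF channels of both comparisons as separate samples, although the 8 arrays drew on 4 HF bulls.

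**Figure D2:**
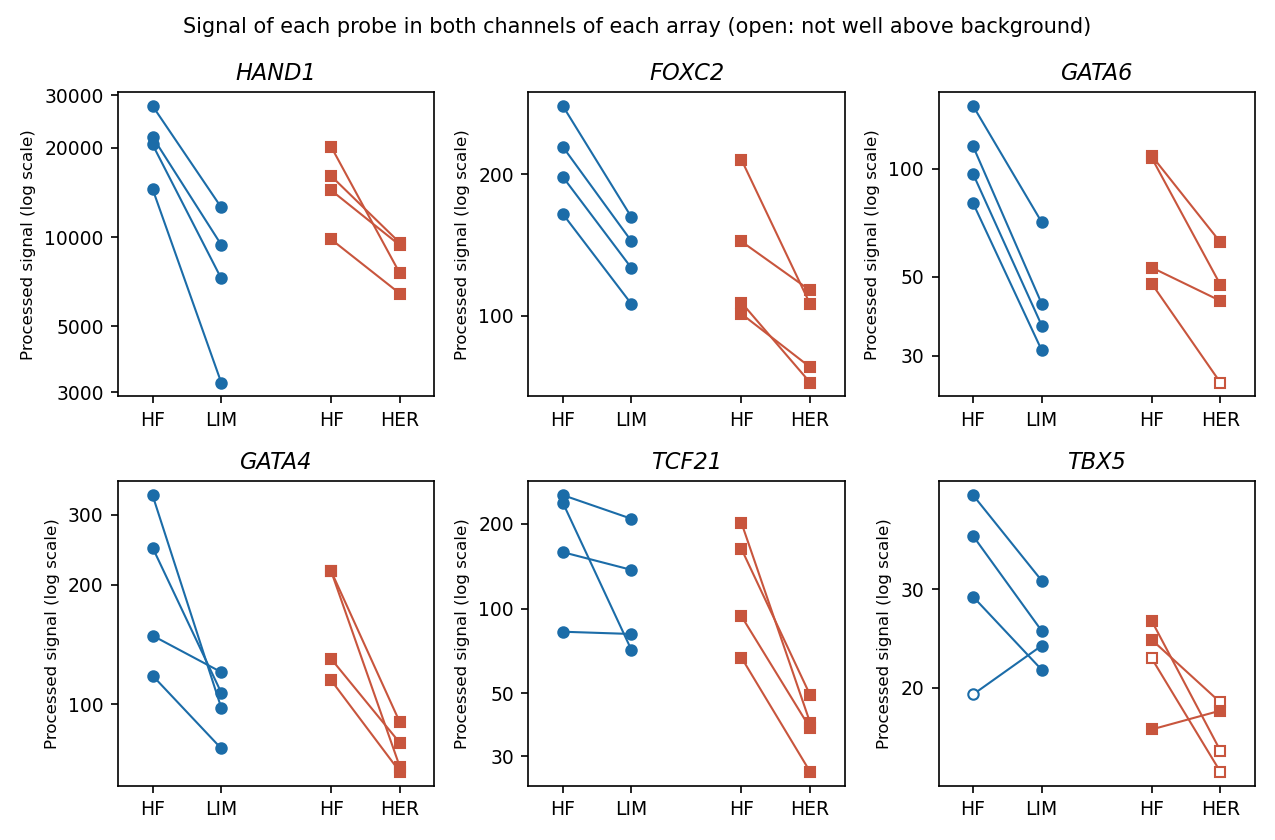
Processed signal (arbitrary units, log scale, each panel with its own axis) of the 6 probes in the HF and beef channel of each array. A line joins both channels of an array, with circles for LIM arrays, squares for HER arrays, and open symbols for a channel not well above background. HAND1 signals of beef cultures lie under all HF signals in both comparisons, and TBX5 has open symbols in 3 of 4 HER channels.

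Among the 3 genes not on the study's list, with the scanner's log ratio, GATA4 was called lower in both comparisons. TCF21 was called lower in HER only, and TBX5 in neither. A ratio under 0 on all 4 arrays was found for 5 of the 6 genes in LIM, where 25.3% of all probes tested behaved so, and for 5 of the 6 in HER, where 30.0% did. Of the 6, HAND1, GATA6, and FOXC2 were chosen by the study for a change on these arrays, so these counts are no test. At a limma adjusted p of at most 0.05 and a fold of at least 1.3, 3 of the 5 genes found through RefSeq (HAND1, GATA4, and FOXC2) were lower in LIM, beside 18.3% of all probes called lower. In HER, 4 of the 5 (also TCF21) were lower, beside 14% of all probes. Since 2 of the 5 were chosen for a change on these arrays, the counts describe the genes and are no test. The median log2 ratio of the 5 was -0.68 in LIM and -0.85 in HER, against -0.01 and -0.06 over all probes tested. It is the value of FOXC2 in LIM and of HAND1 in HER. Both genes were chosen for a change on these arrays, so the median is no test either. Beef and HF signals did not overlap for HAND1, GATA6, and FOXC2 in LIM, all from the study's list (11.9% of all probes were lower without overlap). In HER they did not overlap for HAND1, GATA4, and TCF21 (6.39% of all probes). Leaving out 1 array brought the LIM count to 2 without LIM replicate 2 (25.3% of all probes were then called, in either direction) or LIM replicate 3 (21.5%). It brought the HER count to 1 without HER replicate 2 (8.66%), 2 without HER replicate 3 (15.1%), 3 without HER replicate 1 (8.93%), and 5 without HER replicate 4 (19.7%). With normexp and loess, 2 of the 5 were called in LIM (24% of all probes) and 0 in HER, where 0 of all 17631 probes were called. With marked backgrounds replaced, these counts were 2 in LIM (26% of all probes) and 3 in HER (16.9%).

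**Figure D3:**
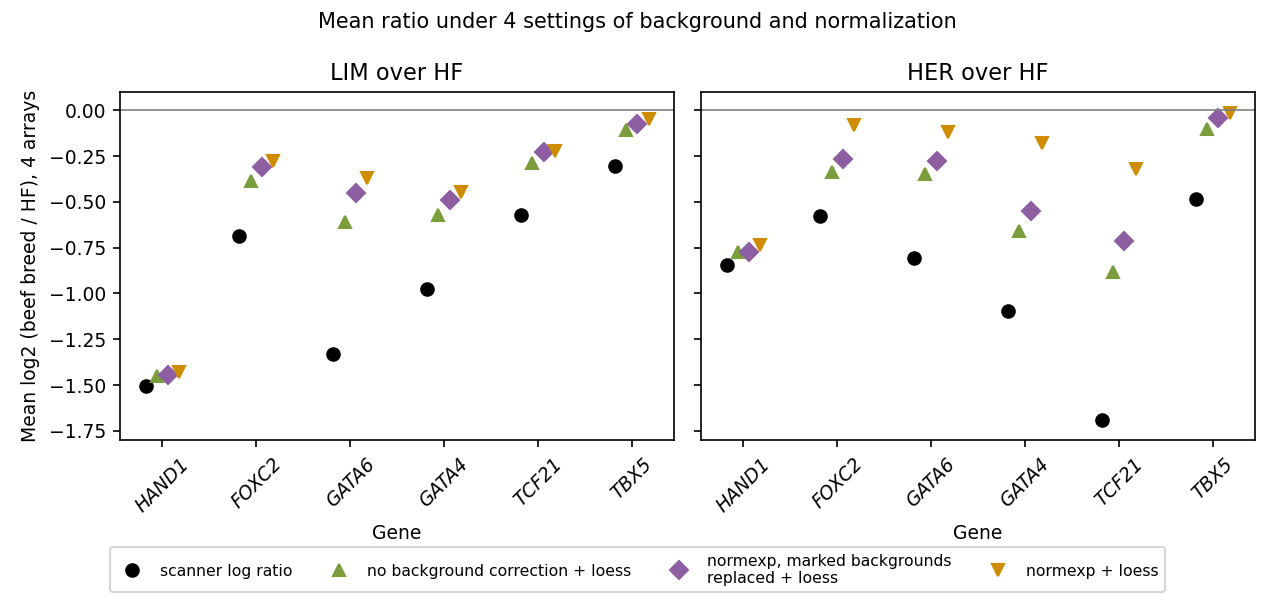
Mean log2 ratio of beef breed over HF (4 arrays per comparison) for each gene under 4 combinations of background treatment and normalization, given by symbol and color (3 of them with loess in place of the scanner's dye normalization, and normexp with an offset of 50). HAND1 stays between -1.50 and -1.43 in LIM and between -0.85 and -0.74 in HER, whereas TCF21 in HER runs from -1.69 with the scanner's log ratio to -0.32 with normexp and loess.

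No member differed between LIM and HER beyond the spread of the arrays at a limma adjusted p of at most 0.05, a threshold passed by 0.233% of all probes. The difference, LIM minus HER, was -0.66 ± 0.28 (SE) for HAND1 (limma adjusted p = 0.334, 95% confidence interval -1.31 to -0.01) and -0.53 ± 0.21 for GATA6 (limma adjusted p = 0.289, -1.002 to -0.05). It was 1.12 ± 0.42 for TCF21 (limma adjusted p = 0.260, 95% confidence interval 0.17 to 2.07). These 3 genes, of which 2 were found through RefSeq, passed at an unadjusted p of 0.05, as did 14.7% of all probes. The difference was -0.11 for FOXC2 (95% confidence interval -0.52 to 0.31), 0.12 for GATA4 (-0.70 to 0.93), and 0.18 for TBX5 (-0.44 to 0.79). Breed, slide, and dye orientation all enter this contrast.

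The 5 named probes whose ratios over the 8 arrays were most like those of HAND1 were TP53I3 (Pearson r = 0.995 across 8 arrays), SOX14 (0.994), AJUBA (0.993), GJB1 (0.993), and ZNF592 (0.992), out of 7205 compared. TP53I3 is an oxidoreductase induced by p53, AJUBA a LIM domain scaffold of cell junctions, and GJB1 a gap junction connexin. After the mean of each comparison was removed, r was 0.985 to 0.997 for these 5. All points share slides, dyes, and perhaps HF cultures, and the highest r of 7205 is high by selection. LIM replicate 4, with the lowest HAND1 ratio, also had the lowest limma array weight (0.30, against 0.81 to 1.97 on the other arrays). Such a weight is lower for arrays that stray more from their group. The share of that array in these correlations was not tested. Among the mesoderm genes, MSX2 (r = 0.985, rank 19) and TBX4 (r = 0.938, rank 165) came highest. They were followed by LBX1 (r = 0.899, rank 262), a gene of limb muscle precursors, GATA5 (r = 0.775, rank 602), and GATA6 (r = 0.754, rank 674). FOXC2 (r = -0.04), TBX5 (r = -0.02), GATA4 (r = -0.26), and TCF21 (r = -0.64) did not follow HAND1 from array to array. Of these 4, 3 were lower than HF on all 8 arrays (FOXC2, from the study's list, GATA4, and TCF21), beside 16.9% of all probes tested.

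Partners, relatives, and known targets of these factors were read from 5 lists with 84 genes, of which 41 had a probe and 38 were tested. In LIM, 3 were higher and 9 lower, beside 16% and 18.3% of all probes. In HER, 1 was higher and 4 were lower, beside 10.4% and 14% of all probes. The median log2 ratio was -0.21 in LIM and -0.31 in HER. Leaving out 1 array brought the LIM count of 12 to 7 (LIM replicate 3, 21.5% of all probes called) or as high as 17 (LIM replicate 4, 39.8%). It brought the HER count of 5 to 1 without HER replicate 1 (8.93%), 2 (8.66%), or 3 (15.1%). Without LIM replicate 4, the HER count reached 11 (30.8%), through the shared estimate of the spread.

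Among 16 tested factors of heart, lateral plate, and limb, LIM had 1 higher and 4 lower, and HER had 1 lower. MSX2, a homeobox gene induced by BMPs, was lower in both comparisons. Its ratio was -1.19, -1.31, -1.82, and -2.52 in LIM and -1.43, -0.96, -0.50, and -0.53 in HER. The lowest array was replicate 4 in LIM and replicate 1 in HER, as for HAND1. Means were -1.71 ± 0.61 in LIM (limma adjusted p = 0.00145) and -0.86 ± 0.44 in HER (limma adjusted p = 0.0331). The HER call was lost without each HER replicate in turn and without LIM replicate 3 (limma adjusted p = 0.0515 to 0.136), and with the replicate number as a block (limma adjusted p = 0.0744). It was also lost with normexp and loess (-1.16, limma adjusted p = 0.173), where 0 of all probes were called in HER.

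The remaining calls of this list, named after their values were seen, were made in LIM. TBX4, a hindlimb factor, had -1.83 ± 1.28 in LIM (limma adjusted p = 0.0111) and -0.83 ± 0.51 in HER (limma adjusted p = 0.174). Its LIM ratio was -3.69 on replicate 4 against -1.68 to -0.90 on the others, and the mean was -1.22 (limma adjusted p = 0.00772) without that array. MEIS1, a homeobox cofactor, had -0.97 ± 0.41 in LIM (limma adjusted p = 0.00363) and -0.50 ± 0.28 in HER (limma adjusted p = 0.0643). GATA5 had -1.25 ± 1.33 in LIM (limma adjusted p = 0.0436) and -0.75 ± 0.16 in HER (limma adjusted p = 0.204). These 3 genes were under 0 on all 4 arrays of each breed, as were 16.9% of all probes tested. No gene of the lists was called for a difference between LIM and HER. The GATA5 probe was well above background in 1 of 4 beef and 2 of 4 HF channels of each comparison, and its LIM mean was -0.63 (limma adjusted p = 0.0478) without LIM replicate 4, where the ratio was -3.11. The LIM mean of GATA5 was -0.08 with normexp and loess, and its call was lost without LIM replicate 2 or 3 or without any HER replicate. HEY2, a Notch target in heart and vessels, was higher in LIM (1.60 ± 0.56, limma adjusted p = 0.0139) and had 0.90 ± 1.13 in HER (limma adjusted p = 0.117). Its HF channel was well above background on 2 of 4 LIM arrays and 1 of 4 HER arrays. The HEY2 call was lost without LIM replicate 2 or 3 and with normexp and loess (0.43), and a dimmer HEY2 probe was higher in both LIM (0.98, limma adjusted p = 0.00939) and HER (0.69, limma adjusted p = 0.0482). ISL1, GATA2, and GATA3 had SDs of 1.34 to 2.88 over arrays and were not called.

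Of 7 tested genes of BMP signaling, BMPR1B, a type I BMP receptor, was the only one called. Its ratio was -1.27, -0.69, -1.53, and -0.95 in LIM and -1.47, -0.46, -0.74, and -0.63 in HER, lower on all arrays. Means were -1.11 ± 0.37 in LIM (limma adjusted p = 0.00333) and -0.83 ± 0.44 in HER (limma adjusted p = 0.0184). Without HER replicate 1, the HER mean was -0.61 (limma adjusted p = 0.069), and with normexp and loess it was -0.32 (limma adjusted p = 0.309). Normexp with loess called 0 of all probes in HER. The ligand BMP4 had 1.28 ± 1.07 in LIM (limma adjusted p = 0.0531) and 0.29 ± 1.00 in HER (limma adjusted p = 0.65). In HER, BMP4 was 1.79 on replicate 1, against -0.25 to -0.18 on the other arrays. The BMP antagonist GREM1 had 0.93 ± 1.55 in LIM and 0.09 ± 0.42 in HER.

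Of 3 tested dimer partners and cofactors, ID1, an inhibitor of E protein dimers that BMP signaling induces, was lower in LIM (-1.21 ± 0.84, limma adjusted p = 0.0158). In HER, it had -0.94 ± 0.49 (limma adjusted p = 0.0514). The LIM call was lost without LIM replicate 2 or 3. The E protein gene TCF3 had 0.03 ± 0.49 in LIM and 0.07 ± 0.08 in HER. ID3 had 0.23 ± 0.49 and -0.32 ± 0.21.

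Of 6 tested factors of paraxial mesoderm and mesenchyme, LBX1, which marks migrating limb muscle precursors, was lower in LIM (-0.83 ± 0.36, limma adjusted p = 0.00667) and had -0.42 ± 0.33 in HER (limma adjusted p = 0.0985). EYA2, a transcriptional cofactor in muscle precursors, was lower in HER (-0.66 ± 0.45, limma adjusted p = 0.0296), where its beef channel was well above background on 1 of 4 arrays, and had -0.16 ± 0.26 in LIM (limma adjusted p = 0.512). The EYA2 call was lost without HER replicate 2 or 3 and with normexp and loess (-0.01), where 0 of all probes were called in HER. SNAI2, a repressor of epithelial genes, had -0.20 ± 0.12 in LIM and -0.33 ± 0.41 in HER.

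Cardiac genes known as targets of these factors moved in both directions. NPPB, which encodes B-type natriuretic peptide, had ratios of -3.74, -1.60, -2.44, and -1.17 in LIM and -0.89, -1.49, -0.60, and -2.54 in HER. Its beef channel was not well above background on LIM replicates 1 and 3 and on HER replicate 3. Means were -2.24 ± 1.13 in LIM (limma adjusted p = 0.00541) and -1.38 ± 0.86 in HER (limma adjusted p = 0.0480), and the LIM mean was -1.74 (limma adjusted p = 0.0161) without LIM replicate 1. The HER call was lost without each HER replicate in turn and without LIM replicate 2 or 3 (limma adjusted p = 0.0622 to 0.149), with the replicate number as a block (limma adjusted p = 0.0951), and with array medians set to 0 (limma adjusted p = 0.0584). With normexp and loess, NPPB was not called in either comparison (-0.51 in LIM and -0.33 in HER, where 0 of all probes were called).

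ANKRD1, a stress-responsive ankyrin repeat gene of heart and skeletal muscle, was higher. Its ratio was 2.90, 2.52, 2.59, and 0.58 in LIM and 1.52, 2.77, 1.41, and 0.84 in HER, with replicate 4 the lowest in both comparisons. Means were 2.15 ± 1.06 in LIM (limma adjusted p = 0.00503) and 1.63 ± 0.81 in HER (limma adjusted p = 0.0231). The HER call was lost without HER replicate 1, 2, or 3 (limma adjusted p = 0.057 to 0.0959). It was also lost with normexp and loess (1.43, limma adjusted p = 0.218), where 0 of all probes were called in HER.

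In LIM, the calls also held TNNI3, cardiac troponin I (-1.36 ± 0.86, limma adjusted p = 0.0155), and GJA1, the gap junction protein connexin 43 (0.91 ± 0.79, limma adjusted p = 0.0390). In HER, TNNI3 had -0.97 ± 0.68 (limma adjusted p = 0.0672) and GJA1 had 0.59 ± 0.48 (limma adjusted p = 0.162). The TNNI3 call was lost without LIM replicate 1, 2, or 3, and the GJA1 call without LIM replicate 1 or 3 or HER replicate 1, 2, or 3, and after scaling between arrays (limma adjusted p = 0.0527). NPPA, a defining transcript of atrial heart muscle, was well above background in 0 of 16 channels, and NKX2-5 and TBX20 were too dim to be tested.

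**Figure D4:**
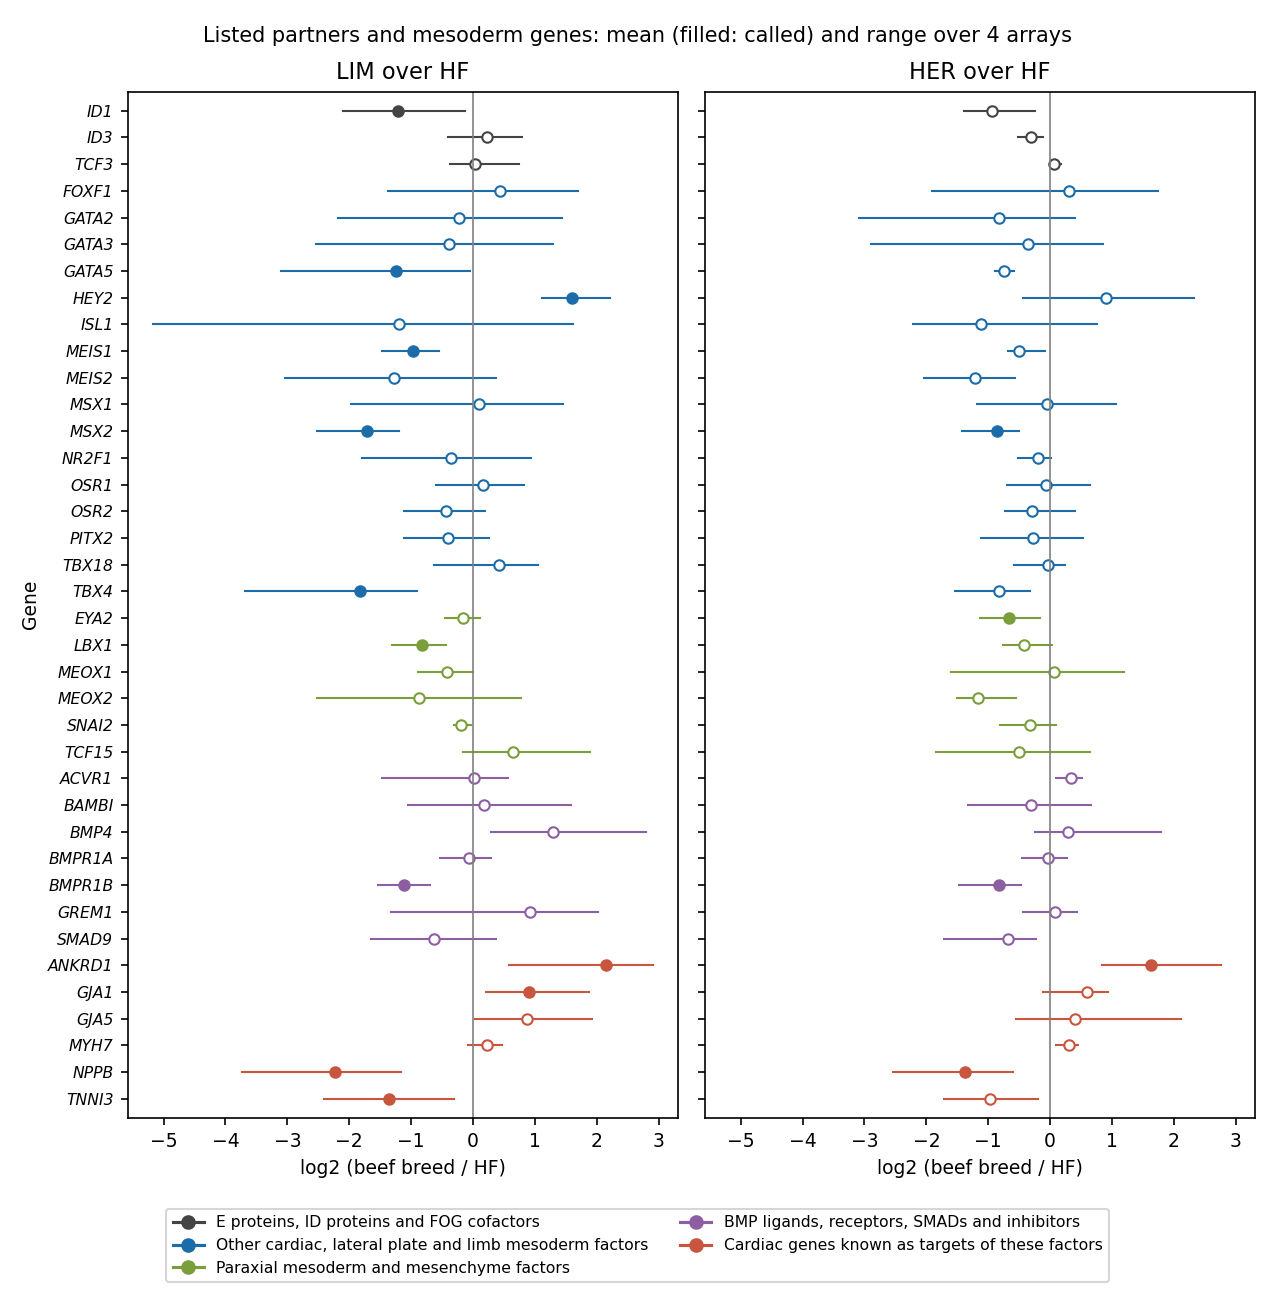
Log2 ratio of beef breed over HF for the 38 tested partners, relatives, and targets, colored by list. Circles give the mean of 4 arrays, filled where called at an adjusted p of at most 0.05 and a fold of at least 1.3, and lines run from the lowest to the highest array. NPPB, MSX2, and BMPR1B are filled under 0 and ANKRD1 above 0 in both panels, and most other circles are open.

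Markers of other cell types were read beside these results. Of 11 listed fibroblast and connective tissue genes, 9 were tested, and 5 were higher and 1 lower in each beef breed, beside 16% of all probes higher and 18.3% lower in LIM and 10.4% and 14% in HER. The log2 ratio of their summed signals was 0.68 to 3.44 in LIM and 0.85 to 2.85 in HER, lowest on replicate 4 of both. In this and the other summed ratios, the brightest genes weigh most. The lower one was PDGFRA, a receptor of fibroblast and fibro-adipogenic cells (-1.48 ± 0.44 in LIM, limma adjusted p = 0.00157, and -1.36 ± 0.47 in HER, limma adjusted p = 0.00537), and its other probe was also called lower in both. Of 5 tested smooth muscle and pericyte genes, 2 were higher in each breed, and of 3 leukocyte and 4 adipocyte genes, 1 each. Of 3 endothelial genes, 0 were called in either breed. The summed ratio of 6 smooth muscle and pericyte genes was -0.31 to 2.14 in LIM and 0.81 to 1.50 in HER, and RGS5 was not well above background on any HER array. On LIM replicate 1, ACTA2 alone gave 290810 of the summed LIM signal of 339670. That of 3 endothelial genes ran from -0.51 to 3.13 in LIM and from -2.66 to 3.14 in HER, and that of 4 adipocyte genes from -1.03 to 2.68 and from -0.98 to 0.33. That of 3 leukocyte genes ran from -0.51 to 1.61 and from -0.96 to 0.48. Those of endothelial, adipocyte, and leukocyte genes thus lay on both sides of 0. Of 5 listed cardiomyocyte genes, 3 had a probe, and their summed ratio was -1.37 to -0.05 in LIM and -1.11 to -0.04 in HER. Of the 2 tested, TNNI3 was lower in LIM, as given above, and MYBPC3, cardiac myosin binding protein C, was higher in LIM (0.50 ± 0.30, limma adjusted p = 0.0392) and had -0.02 ± 0.34 in HER (limma adjusted p = 0.923). The part of these cells in the lower ratios of HAND1, GATA4, TCF21, and the other factors was not tested.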

How the data were processed

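The authors deposited, for each of 8 two-colour arrays, the output of Feature Extraction 10.7.3.1 (44407 spots, grid build HGSC Btau_3.1), with red and green intensity per spot, detection flags (unit other), and its own background-subtracted, dye-normalized log10 ratio (red over green), which the deposited series table repeats. The log10 ratio was turned to log2 beef breed over HF, outlier spots were left out, and spots of a probe averaged. A probe was tested if at least 4 of 16 channels were well above background (17631 of 21475). One mean per comparison was fitted over all 8 arrays with limma 3.58.1 in R 4.3.3. Calls needed a Benjamini-Hochberg adjusted p of at most 0.05 and a fold of at least 1.3, the fold of the methods. Of several probes for a gene, the brightest stands for it.

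Probe names came from RefSeq (7793 of 20693 accessions, by a table on assembly ARS-UCD2.0), and GATA6 from the study's list. No coordinates or sequences are given. Members and lists were chosen with earlier results of these data known. Besides the members, genes were named if called with one sign in both comparisons (up to 3 per direction and list) or if among the 5 probes most like HAND1, and the other genes of the lists were named after their values were seen. On simulated data (17629 probes), 57% of simulated log2 changes of size 1 and 85% of size 2 were called for LIM, and 61% and 86% for HER. Only a small part of the simulated probes was changed, whereas 34.3% of all probes in LIM and 24.4% in HER were called in the data. These rates therefore need not hold for the calls reported here. The number of arrays, 4 per comparison, limits precision. Alternatives covered background, normalization, filter, test, threshold, weights, dye, block, and leaving out each array.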

Additional observations from a re-analysis of the deposited data

Results flagged for a closer look

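In a group of 4 arrays, a single array was marked where its gap to the nearest other array made up most of the whole range (Dixon's criterion at the 95% level). Chance marks about 1 in 20 groups. TCF21 was -1.77 on LIM replicate 1, against -0.28 to -0.03 on the other LIM arrays. TBX5 was 0.29 on LIM replicate 3, against -0.56 to -0.47, and 0.12 on HER replicate 4, against -0.74 to -0.60. FOXC2 was -0.79 on LIM replicate 2, against -0.66 to -0.64. ANKRD1 was 0.58 on LIM replicate 4, against 2.52 to 2.90. The marks are not complete for the wider lists, where BMP4 was 1.79 on HER replicate 1, against -0.25 to -0.18 on the other HER arrays.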

How the results depend on the processing

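The HAND1 mean ran from -1.63 to -1.28 in LIM and from -0.93 to -0.66 in HER over 21 alternatives. Its direction is no test there, since changes of threshold, test, or filter leave the mean as it is. Leaving out 1 array could not turn a sign shared by all arrays. Under the 3 settings with loess, the mean was -1.45 to -1.43 in LIM and -0.78 to -0.74 in HER. Of the 5 genes found through RefSeq, the count called was 3 in LIM and 4 in HER. The methods' t-test after adjustment called 1 in LIM (5.68% of all probes) and 0 in HER (0.0113%), with GATA4 and TCF21 called in neither. Normexp with loess called 0 in HER, where 0 of all probes were called. Leaving out 1 array gave 2 to 3 in LIM (21.5% to 39.8% of all probes were then called) and 1 to 5 in HER (8.66% to 30.8%). The difference between LIM and HER was called for 0 genes (0 by the methods' t-test and 0 without each array), and for 2 at an unadjusted p (14.7% of all probes).

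For the wider lists, the counts were 12 in LIM and 5 in HER. After adjustment, the methods' t-test called 0 in both (5.68% of all probes in LIM and 0.0113% in HER). Normexp with loess called 0 in HER, where 0 of all probes were called. In HER, scaling between arrays called 10 (31.9% of all probes), array weights 10 (31.7%), and an unadjusted p 12 (34.8%). Leaving out 1 array gave 7 to 17 in LIM (21.5% to 39.8% of all probes) and 1 to 11 in HER (8.66% to 30.8%). The cause was not tested. After Benjamini-Hochberg adjustment, the methods' t-test called 1002 of all probes in LIM and 2 in HER. At the methods' own threshold (unadjusted p of 0.05, fold of 1.3), it called 5070 in LIM (28.8%) and 4823 in HER (27.4%), among them 2 and 4 of the 5 genes.

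Replicate numbers were not taken as pairing LIM and HER arrays, since neither the labels nor the methods say that they do. The correlation of same-numbered ratio deviations was -0.24, 0.13, 0.30, and 0.54, which does not settle it. HF signals of the same number correlated with 0.52 to 0.72, each best with its own number, a hint from the data that HF cultures were shared. With the replicate block, 36.1% of all probes were called in LIM and 24.4% in HER. The counts were then 3 and 4 for the 5 genes and 11 and 5 for the wider lists. The block ended the calls of MSX2 and NPPB in HER and of GATA5 in LIM, and MEIS1 and TNNI3 passed in HER. The difference between LIM and HER was then called for 0 of the 5 genes and 0 of all 17631 probes.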
